A study of Drosophila melanogaster with 3 samples.

Results

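The odorant (Or), gustatory (Gr) and ionotropic (Ir) receptor genes were taken as every protein-coding gene of the Ensembl BDGP6 annotation whose name begins with Or, Gr or Ir followed by a digit. The rule gave 179 of 13968 protein-coding genes, of which 59 were Or, 60 Gr and 60 Ir genes. Their Tango occupancy was read from chromatin immunoprecipitation sequencing of whole Drosophila melanogaster embryos, 0 to 24 h old, of a strain with an eGFP-tagged insertion of tango (tgo). The labels describe 1 group of 3 biological replicates from this strain, with sonication to 200 to 800 bp and sex not collected. Their free text gives an anti-GFP antibody, which is followed here, while their antibody entry reads tgo. There was no untagged arm, so peaks that are not specific to Tango cannot be told apart from those that are. Each value comes from a mixture of all embryonic tissues and stages, in which fewer bound cells and weaker binding per cell cannot be told apart. The files held no expression values, so the labelled stage could not be checked against marker genes.

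Odorant receptors are membrane channels of the olfactory neurons, where a tuned receptor works together with the shared co-receptor Orco. Gustatory receptors detect sugars, bitter compounds and carbon dioxide, and some sense heat or light. Ionotropic receptors descend from glutamate-gated channels and work with the co-receptors Ir8a, Ir25a and Ir76b in smell, taste, temperature and humidity sensing. A given sensory neuron typically uses only a few of these genes, and most are expressed late and in very few cells. Tango, the Drosophila counterpart of mammalian ARNT, is a bHLH-PAS transcription factor that binds DNA only when paired. Its partner Single-minded is also known to act in odorant receptor choice.

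A territory was defined as the gene body plus 2 kb upstream, and a gene was counted for a list if a peak summit lay in its territory. The authors' thresholded lists held 3617, 4759 and 3027 peaks in replicates 1, 2 and 3, and their longer ranked lists held 35134, 75958 and 33491 candidates. The median width of a thresholded peak was 340, 340 and 350 bp. The sources used here give no read depth, which leaves the precision of single peaks unknown, and the exact binomial intervals below cover counting error only.

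Thresholded summits of the replicates that lay within 150 bp of each other were joined, and a joined region present in at least 2 of the 3 lists was called a core region. Core regions lay in the territories of 4 of the 179 receptor genes, Or88a, Gr32a, Gr97a and Ir94c. That is 2.23% (exact 95% binomial interval 0.612 to 5.62%), against 23.1% of all protein-coding genes. The 201 bp of dm6 centred on the strongest thresholded summit of each of the 4 regions are given here on the plus strand, since they are the sequences on which the calls at receptor genes rest. The windows are chr2L:11113204-11113404 for Gr32a, chr3R:14108680-14108880 for Or88a, chr3R:22121336-22121536 for Ir94c and chr3R:26967674-26967874 for Gr97a. Capitals mark matches, on either strand, to ACGTG and GCGTG, the cores known for pairs that contain Tango, to TATCGA, part of the DREF element of many promoters, and to GATAA, the word bound by GATA factors.
Or88a region: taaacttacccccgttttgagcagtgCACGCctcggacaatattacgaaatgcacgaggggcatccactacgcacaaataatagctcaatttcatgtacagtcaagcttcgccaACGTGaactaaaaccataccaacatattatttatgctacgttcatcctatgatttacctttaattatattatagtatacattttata
Gr32a region: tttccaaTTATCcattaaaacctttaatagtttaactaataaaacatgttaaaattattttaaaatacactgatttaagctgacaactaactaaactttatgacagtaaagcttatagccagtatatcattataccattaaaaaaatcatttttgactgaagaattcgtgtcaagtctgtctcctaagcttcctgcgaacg
Gr97a region: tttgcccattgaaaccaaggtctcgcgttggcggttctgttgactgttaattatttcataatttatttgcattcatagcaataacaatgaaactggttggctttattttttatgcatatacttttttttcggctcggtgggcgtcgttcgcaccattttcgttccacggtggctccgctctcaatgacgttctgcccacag
Ir94c region: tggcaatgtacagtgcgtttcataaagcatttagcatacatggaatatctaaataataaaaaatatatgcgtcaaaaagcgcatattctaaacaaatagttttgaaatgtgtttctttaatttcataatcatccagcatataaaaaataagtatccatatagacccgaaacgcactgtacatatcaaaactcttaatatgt
The Or88a window held 1 ACGTG, on the plus strand from position 115 of the window, and 1 GCGTG, on the minus strand from position 27. The Gr32a window held 1 GATAA on the minus strand from position 8, and the Gr97a and Ir94c windows held none of the 4 words. No matches overlapped in these windows. Over the windows of the same length at all 3463 core regions, 12.5% held ACGTG, 14.3% GCGTG, 11.8% TATCGA and 41.2% GATAA. The GC content was 36.8% in the Or88a window, 27.9% in Gr32a, 42.8% in Gr97a and 28.4% in Ir94c, against a mean of 34.0% at all core regions.

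Or88a (FBgn0038203), an odorant receptor of trichoid neurons that respond to fly odours, had a thresholded summit in all 3 replicates. The summits lay at positions 14108794, 14108780 and 14108800 of arm 3R in replicates 1, 2 and 3, which is 651, 665 and 645 bp upstream of the annotated start. By the authors' signal value, of unstated unit and used here as a rank within a list, they stood at percentiles 74.3, 85.9 and 59.0 of the thresholded lists. All 3 were above the median of their list, and Or88a was the only receptor gene of which this held. The sequence there is intergenic, and the nearest annotated start was that of CG12402, at 473, 459 and 479 bp.

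Gr32a (FBgn0041246), a bitter receptor that also takes part in the response to male pheromone, was the other receptor gene with a summit in all 3 thresholded lists. Its summits lay 710, 697 and 767 bp upstream of the Gr32a start on arm 2L, at signal percentiles 42.2, 39.9 and 8.79. None of them reached the median of its list. The start of Idua, which encodes a lysosomal iduronidase, was nearer, at 243, 256 and 186 bp.

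Gr97a (FBgn0041224), a gustatory receptor gene of arm 3R, had thresholded summits in replicates 1 and 2 only. Replicate 1 had a summit 1248 bp upstream at percentile 17.0 and another 1807 bp upstream at percentile 1.66. Replicate 2 had 1 summit, 1289 bp upstream at percentile 54.7. In replicate 3 the same place held a candidate 1271 bp upstream that did not pass, with a −log10 IDR of 0.309, where 2 is the threshold. The thresholded summits all lay in an intron downstream of the start of CG5521, at 803, 1362 and 844 bp from it.

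Ir94c (FBgn0051423), an ionotropic receptor gene of arm 3R, had thresholded summits in replicates 1 and 3. They lay 1982 and 1929 bp upstream, close to the outer edge of the territory, at percentiles 68.8 and 21.2, and the nearest start was that of CG42390, at 1375 and 1322 bp. Replicate 2, whose lists are the longest, had no candidate of any rank in the Ir94c territory.

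A further 2 receptor genes had a thresholded summit in replicate 2 alone. At Gr64a (FBgn0045479), a sugar receptor gene of arm 3L, it lay 844 bp upstream at percentile 19.0, in a UTR exon 86 bp from the start of CG11594. At Or45b (FBgn0033422), an odorant receptor gene of the larval nose on arm 2R, it lay 1930 bp upstream at percentile 27.8. Both had a candidate in the corresponding place in the other 2 replicates, with −log10 IDR of 0.379 and 0.327 at Gr64a and 0.132 and 0.155 at Or45b, all under the threshold. Of the 6 receptor genes with a thresholded summit, Or45b was the only one whose own start was the nearest start to it. Over all genes, a mean of 23.9% had a thresholded summit, and 16.0% when only summits nearest the gene's own start were counted. No thresholded summit lay inside the body of a receptor gene.

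**Figure D1:**
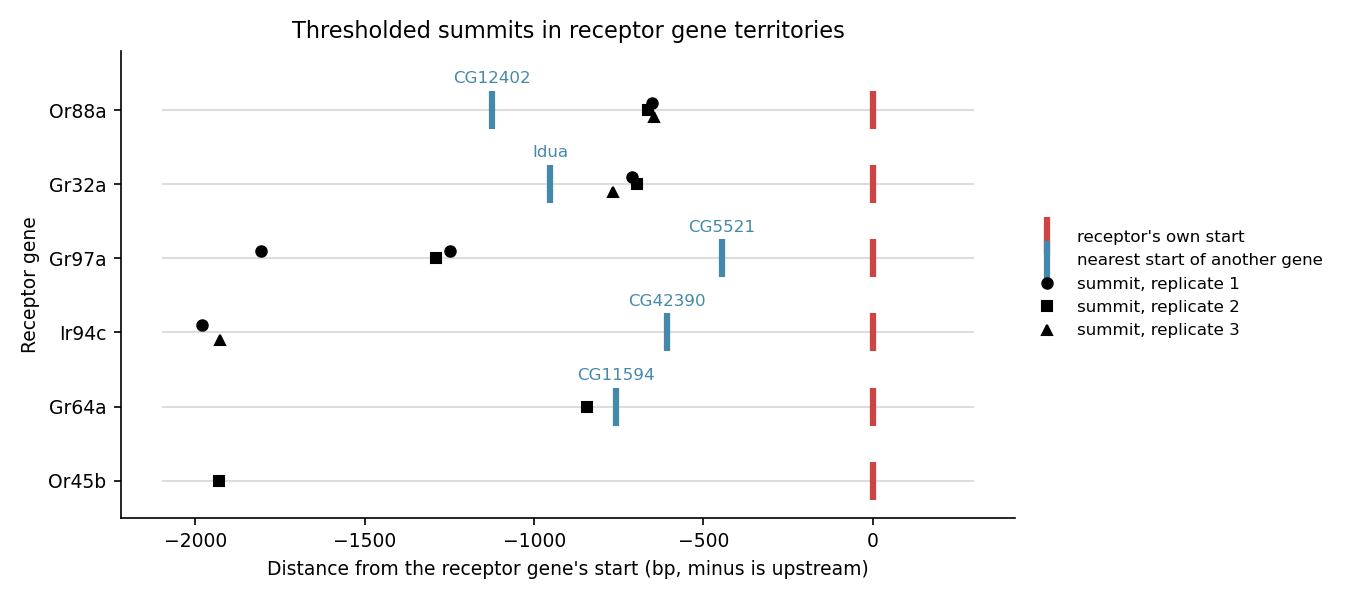
Position of each thresholded summit in a receptor gene territory, in bp from the receptor gene's own start (minus is upstream), with 1 line per gene and 1 symbol per replicate. Red bars mark the receptor's start and blue bars the nearest start of another gene. Or88a and Gr32a have summits from all 3 replicates, and at every gene except Or45b another gene's start is nearer to the summits than the receptor's own.

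The same low share was seen in each replicate separately. Thresholded summits lay in the territories of 4, 5 and 3 receptor genes, or 2.23%, 2.79% and 1.68%, against 24.2%, 27.2% and 20.3% of all genes. The mean was 2.23 ± 0.559% (SD, n = 3) for receptor genes and 23.9 ± 3.5% for all genes, and the replicate values of the 2 sets did not overlap. By family, the counts in replicates 1, 2 and 3 were 1, 2 and 1 of 59 Or genes. They were 2, 3 and 1 of 60 Gr genes, and 1, 0 and 1 of 60 Ir genes. A count of 0 of 60 in replicate 2 has an exact upper limit of 5.96%. The families' intervals for a core region overlapped widely, at 0.0429 to 9.09% for Or, 0.406 to 11.5% for Gr and 0.0422 to 8.94% for Ir.

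Per length of territory, receptor genes held 6.64, 6.64 and 3.98 thresholded summits per Mb in replicates 1, 2 and 3. All protein-coding territories, merged where they overlap, held 31.9, 41.8 and 26.0 per Mb. The receptor density was therefore 0.173 ± 0.0302 of that of all genes (SD, n = 3), or −2.54 ± 0.24 on the log2 scale, and it was lower in 3 of 3 replicates. An exact two-sided sign-flip permutation test over the 3 replicates gave p = 0.25, the smallest value that 3 replicates allow, so the design cannot reach a threshold of 0.05.

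Receptor genes are short, with a median body of 1691 bp against 2164 bp for all genes, and their merged territories covered 753 kb. Among territories under 4 kb, 4 of 127 receptor genes had a core region (3.15%), against 13.7% of all genes of that size. Among territories of 4 to 6 kb it was 0 of 43 against 22.0%, and of the remaining 9 longer receptor genes none had a core region. The share was thus below that of all genes of like length where most receptor genes lie. Tandem arrangement is common in these families, so neighbours can share territory. A gene of the same family lay within 5 kb of 16 Or, 33 Gr and 27 Ir genes, and 39 of the 179 overlapped the body of a gene outside the list.

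Candidates of any rank were not missing from receptor genes. A ranked candidate lay in 108, 107 and 99 receptor territories, or 60.3%, 59.8% and 55.3%, against 71.9%, 85.5% and 73.8% of all genes. The mean was 58.5 ± 2.76% for receptor genes and 77.1 ± 7.38% for all genes. Replicate 2, with the longest list, raised the share of all genes but not that of receptor genes. Among territories under 4 kb the shares in replicate 1 were close, at 59.1% of receptor genes and 59.4% of all genes, while in replicate 2 they were 54.3% and 76.7% and in replicate 3 52.0% and 60.8%. The density of candidates was 0.663 ± 0.125 of that of all genes, or −0.61 ± 0.28 on the log2 scale, lower in 3 of 3 replicates (exact sign-flip p = 0.25).

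The receptor genes with territories of 12 kb or more, Ir41a and Ir40a, weigh on the densities per length. Ir41a, an antennal receptor gene of 104437 bp on arm 2R in the annotation, held 25, 0 and 11 ranked candidates in replicates 1, 2 and 3, with 71.2% of its 31-base words unique. Ir40a, a receptor of the humidity-sensing neurons, is 24851 bp long on arm 2L and held 1, 0 and 1, with 75.8% unique. Replicate 2 had no candidate at either gene although its list is the longest. Without both genes the density ratio was −2.26 on the log2 scale for thresholded summits and −0.46 for ranked candidates.

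The 3 families differed in how steady this share was. Or genes had candidates in 36, 29 and 22 of 59 territories, or 61.0%, 49.2% and 37.3%. Gr genes had them in 36, 41 and 37 of 60, and Ir genes in 36, 37 and 40 of 60. In replicate 1 the families were thus alike, and in replicates 2 and 3 the Or genes had the lowest share. The means were 49.2 ± 11.9% for Or, 63.3 ± 4.41% for Gr and 62.8 ± 3.47% for Ir genes, and the difference between families was not tested.

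**Figure D2:**
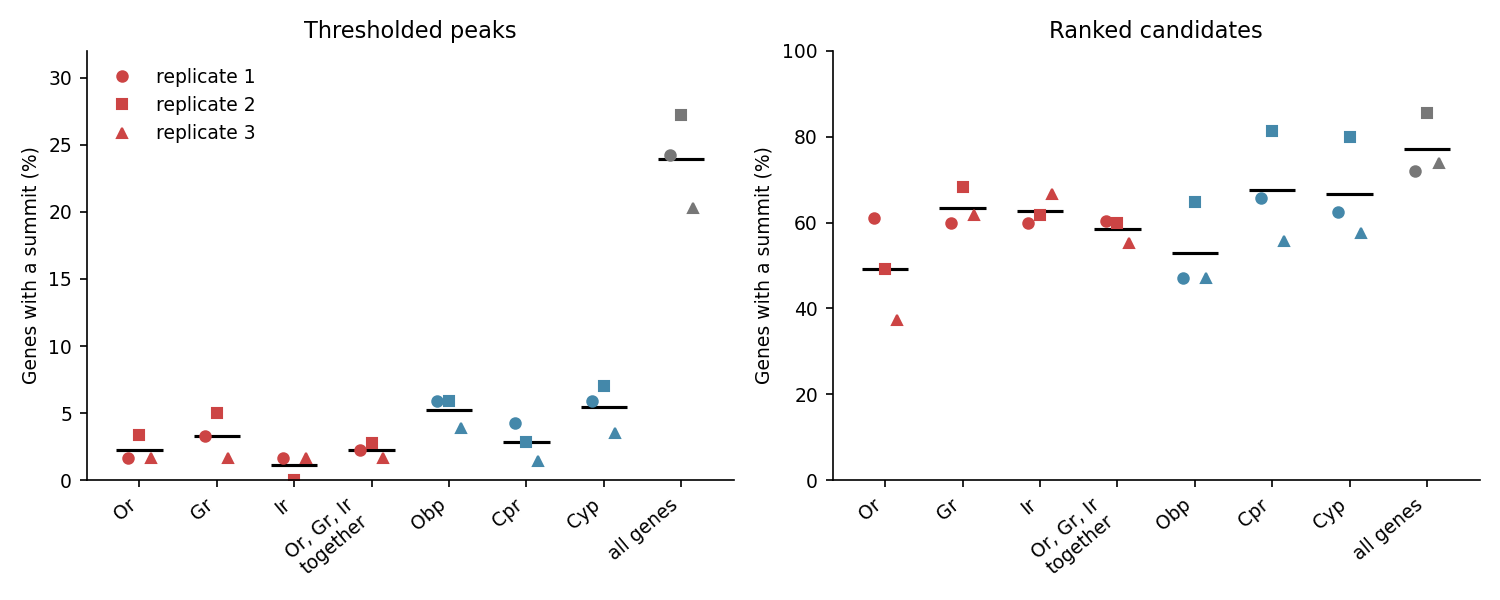
Share of genes (percent) with a thresholded summit and with a ranked candidate in the territory, for receptor families, comparison families and all genes. Symbols are the 3 replicates and the short lines their mean. Receptor genes lie at 1.68 to 2.79% for thresholded summits against 20.3 to 27.2% for all genes, and at 55.3 to 60.3% against 71.9 to 85.5% for ranked candidates.

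Candidates at receptor genes seldom passed the authors' threshold. Of the candidates in receptor territories, 5 of 155 passed in replicate 1 (3.23%, exact interval 1.06 to 7.37%), 5 of 253 in replicate 2 (1.98%, 0.645 to 4.55%) and 3 of 133 in replicate 3 (2.26%, 0.468 to 6.45%). In all territories 12.3%, 6.76% and 10.2% passed. The passing share at receptor genes was 0.258 ± 0.0361 of that in all territories, or −1.96 ± 0.21 on the log2 scale, lower in 3 of 3 replicates (exact sign-flip p = 0.25). Their signal was also low in rank. The median percentile of candidates in receptor territories was 39.0, 43.6 and 41.7, against 51.1, 50.6 and 50.6 over all territories. Only 4, 10 and 4 receptor candidates were above percentile 90 of their list by signal, or 2.58%, 3.95% and 3.01%, against 11.7%, 10.4% and 10.9% of candidates in all territories.

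**Figure D3:**
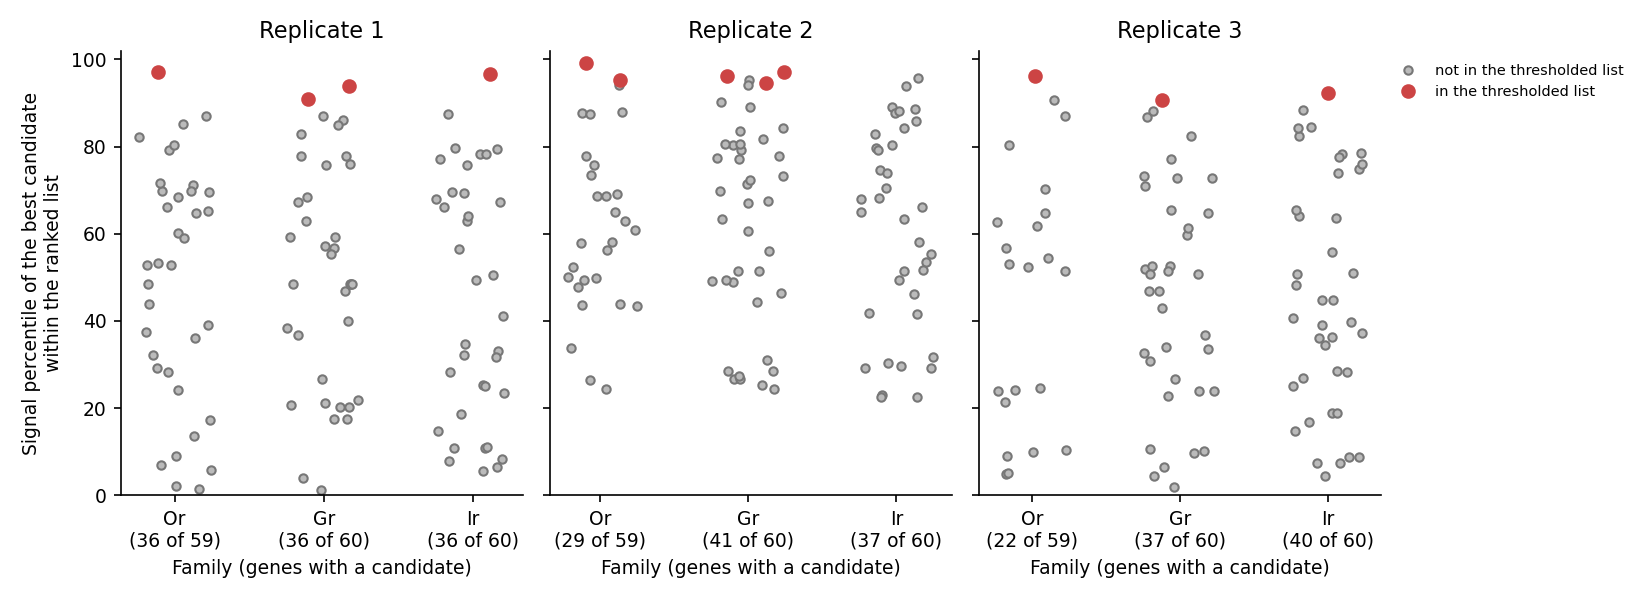
Signal percentile, within the ranked list, of the best candidate of each receptor gene that has one, by family and with 1 panel per replicate; sideways spread within a family has no meaning. Red points are the 4, 5 and 3 receptor genes in the thresholded lists of replicates 1, 2 and 3, and grey points are the others, with the number of genes that have a candidate under each family.

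Few receptor genes had candidates in every replicate. Of the 179, 47 had a candidate in all 3 ranked lists (26.3%, against 58.0% of all genes). A further 59 had one in 2 lists (33.0% against 21.8%), 55 in 1 list (30.7% against 13.8%) and 18 in none (10.1% against 6.44%). The 18 without any candidate were Or7a, Or19a, Or19b, Or22a, Or22b, Or33b, Or33c, Or67c, Or85b, Or85c, Gr10b, Gr22c, Gr22d, Gr57a, Gr58a, Ir20a, Ir94a and Ir94b. They include both members of several neighbouring pairs, among them Or22a, a receptor for fruit esters, and its neighbour Or22b. How unique the sequence of a territory is was measured beside this, as the percentage of its 31-base words that occur once in the 7 arms used. The median over receptor genes was 100%, and the lowest value was 47.1%, at Or19a and Or19b. Of the 18 genes without a candidate, 2 were under 90%, and 9 of all 179 receptor genes were (5.03%), against 7.57% of all protein-coding genes. The part of sequence uniqueness in the counts was not tested.

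A stricter measure asked for candidates at the same place, joined at 150 bp, in all 3 ranked lists. Such a recurrent region lay in the territory of 20 receptor genes (11.2%), against 43.2% of all genes. By family these were 5 Or, 8 Gr and 7 Ir genes, with 20 distinct regions. No list called 15 of the 20 regions past the threshold, and the receptor's own start was the nearest start in 10 of the 20. Values over all genes are not given beside these counts, which are a description only. Or10a and Gr10a have the same annotated start and end, so the recurrent region there, at a mean signal percentile of 79.0 ± 14.7 (SD, n = 3) of the ranked lists, counts for both genes.

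Among recurrent regions the Or88a region ranked highest, at percentiles 97.2, 99.1 and 96.2 of the ranked lists. Next were Gr32a at 93.8, 96.1 and 90.7, and Gr97a at 90.9, 97.1 and 86.9. At Ir60e the values were 87.6, 93.8 and 88.4 although no list passed the region, whose −log10 IDR was 0.18, 1.73 and 1.51. It lay 294, 297 and 296 bp upstream of the Ir60e start and 25 bp from that of CG13585. Or9a had 85.2, 87.9 and 90.6, also with no passing call, about 1 kb upstream of its own start and 34 bp from the start of Neb-cGP. Gr39b had 86.1, 95.2 and 82.5, 207 bp from the start of CG8665. In each of these 6 cases the region lay nearer the start of another gene. Next in mean percentile came Gr64a (83.5), also nearer another gene's start. Or45b (79.7) and Or10a with Gr10a (79.0) followed, and there the receptor's own start was nearest. The share over all genes is not given, so whether this is particular to receptor genes cannot be told.

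Within 300 bp of one of the gene's own annotated starts in all 3 lists, 5 genes had a recurrent region, Gr21a, Gr28b, Or30a, Gr77a and Ir60e. The share over all genes is not given here, so whether 5 is few or many cannot be told. Gr21a has 2 annotated starts and Gr28b has 5, and at both the region lay by an internal start, inside the gene body. Gr21a, a subunit of the carbon dioxide receptor, had candidates 163, 270 and 41 bp upstream of its internal start, at percentiles 59.3, 77.8 and 35.2. The strongest of them was 524 bp downstream of the outermost start. Gr28b, which is known for roles in heat and light sensing, had them at −14, 137 and 71 bp from an internal start, the first of these 1591 bp downstream of the outermost start, at percentiles 63.0, 54.5 and 50. Or30a, an odorant receptor of the larva, had them at 7, 43 and 38 bp, in a coding exon, at percentiles 48.6, 58.0 and 62.7. Gr77a had them 168, 165 and 158 bp downstream, in a coding exon, at percentiles 38.5, 84.3 and 72.9. At Gr21a, Gr28b, Or30a and Gr77a the −log10 IDR ranged from 0.0658 to 0.601, under the threshold of 2 in every list.

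The 3 Ir co-receptors, Ir8a, Ir25a and Ir76b, had no thresholded summit in any replicate. Ir25a, which pairs with many tuned Irs, had 1, 5 and 3 ranked candidates, and 1 of its places recurred, 1062, 1063 and 1077 bp upstream, at percentiles 75.9, 74.7 and 41.7. Ir76b, a co-receptor for taste and for amines, had 2, 2 and 3 candidates. The best of them had −log10 IDR of 0.157, 1.99 and 0.13, so that of replicate 2 stood just under the threshold. Ir8a, the co-receptor for acid sensing, had 0, 3 and 1 candidates, the best at percentiles 49.4 and 16.8.

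The receptors were also grouped by known role, in groups too small to set apart from the shares over all genes (23.1% for core regions, 24.2%, 27.2% and 20.3% for thresholded summits and 71.9%, 85.5% and 73.8% for ranked candidates). Core regions were found at 1 of 4 trichoid Ors (Or88a) and 1 of 5 broadly expressed bitter receptors (Gr32a). None were found at the 3 co-receptors, the 5 thermo and hygro receptors, the 10 antennal Irs, the 2 carbon dioxide receptors, the 9 sugar receptors or the 26 larval Ors. The larval Ors are the odorant receptors known to be used by the stage that follows the embryo. They had a thresholded summit at 0, 1 and 0 genes and a ranked candidate at 19, 11 and 7 of 26. All 5 thermo and hygro receptors had a ranked candidate in replicates 1 and 3 and 4 of them in replicate 2.

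The signal around transcription start sites differed in shape. Over all genes, ranked summits in the 200 bp upstream of the start numbered 16.8, 26.7 and 17.3 per 100 genes, against 5.20, 14.5 and 5.75 in the bin 2000 bp upstream. At receptor genes the same bins held 2.79, 7.26 and 3.91, against 3.91, 7.26 and 6.70. Candidates over all genes thus rose towards the start, while receptor genes held no more just upstream of the start than 2000 bp upstream. Between these bins the receptor values were not level. From 1000 to 800 bp upstream they were 7.82, 12.3 and 5.59, against 5.1, 15.7 and 6.05 over all genes. In the 200 bp upstream of the start, thresholded summits numbered 8.23, 8.85 and 6.96 per 100 genes overall and 0 at the 179 receptor genes in each replicate.

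**Figure D4:**
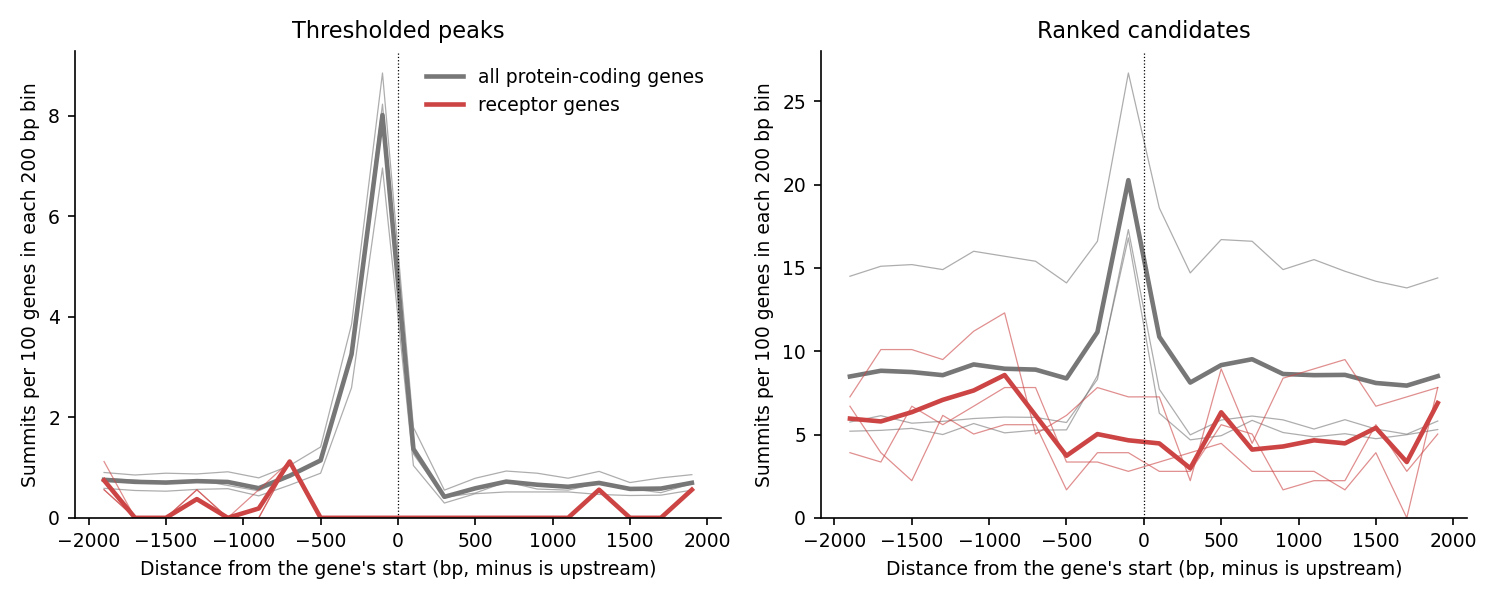
Thresholded summits (left) and ranked summits (right) per 100 genes in 200 bp bins around the gene start (bp, minus is upstream) for receptor genes and all protein-coding genes; thin lines are the 3 replicates and thick lines their mean. Ranked summits of all genes rise to 16.8, 26.7 and 17.3 in the bin just upstream of the start, where receptor genes stand at 2.79, 7.26 and 3.91.

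By sequence class, the receptor territories were 40.8% coding exon, 29.9% intron, 23.2% intergenic and 6.06% UTR exon. Intergenic sequence of receptor territories held 13.4 ± 3.31 thresholded summits per Mb, against 126 ± 21.2 in all territories (SD, n = 3). Introns held 7.39 ± 5.12 against 32.7 ± 8.71, and coding exons held 0 against 1.09 ± 0.682. UTR exons held 7.31 ± 12.7 against 28.5 ± 9.14, from a single receptor summit in replicate 2. Receptor territories thus had fewer thresholded summits per Mb than all territories in intergenic sequence and introns, by more than the spread between replicates. The intron value rests on 3, 1 and 1 receptor summits. It includes the long genes Ir41a and Ir40a (104437 and 24851 bp), which held no thresholded summit, and was not counted without them. For ranked candidates the intergenic values were 277 ± 47.7 and 544 ± 208 per Mb.

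The start of a receptor gene lay a median of 23.2 kb from the nearest core region (quartiles 8.23 and 52.7 kb), against 9.68 kb for all genes (2.66 and 24.9 kb). Core regions within 1 kb of a start were found for 2 receptor genes (1.12%) against 17.4% of all genes, and within 300 bp for 0 against 12.5%. Or genes lay farthest away, with a median of 34.3 kb, against 15.3 kb for Gr and 14.9 kb for Ir genes.

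The receptor promoters, taken from 250 bp before to 50 bp after the start, were compared with all promoters of that length. Mean GC was 39.5% against 39.1%, ACGTG on either strand occurred in 21.8% against 23.2%, and GCGTG in 24.6% against 26.2%. TATCGA occurred in 30 of 179 receptor promoters (16.8%), against 27.7% of all promoters. By family it was 22.0% of Or, 11.7% of Gr and 16.7% of Ir promoters, and it was 5.88% of Obp, 11.4% of Cpr and 15.3% of Cyp promoters, all under the receptor value. GATAA occurred in 58.1% against 55.1%, and by family in 55.9% of Or, 71.7% of Gr and 46.7% of Ir promoters. These are counts of letters in a window, not of bound sites.

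Other gene families named by a common stem gave a comparison. Core regions lay at 3 of 51 odorant-binding protein (Obp) genes (5.88%), 2 of 70 Cpr cuticle protein genes (2.86%) and 5 of 85 genes whose name begins with Cyp (5.88%), a stem that takes in cyclophilins such as Cyp1 besides the cytochrome P450 genes. Their thresholded means over replicates were 5.23 ± 1.13%, 2.86 ± 1.43% and 5.49 ± 1.8%, so low shares were found in these families too. The passing shares of candidates in replicates 1, 2 and 3 were 3.49%, 1.2% and 1.69% for Cpr genes. They were 10%, 2.5% and 6.25% for Obp and 6.58%, 3.2% and 4.0% for Cyp genes, against 12.3%, 6.76% and 10.2% in all territories. The exact intervals for Obp genes (2.11 to 26.5%, 0.304 to 8.74% and 0.766 to 20.8%) included the all-territory share in every replicate. Those for Cyp genes included it in replicates 1 and 3, and those for Cpr genes lay below it in all 3. The Cpr values were below those of receptor genes in replicates 2 and 3 and above in replicate 1. Candidates above percentile 90 by signal made up 2.33%, 5.42% and 3.39% at Cpr genes. Recurrent candidate regions were at 17 of 70 Cpr genes (24.3%) and 17 of 85 Cyp genes (20.0%), and at 3 of 51 Obp genes. The starts lay a median of 13.8 kb (Obp), 15.3 kb (Cpr) and 17.9 kb (Cyp) from the nearest core region. Differences between receptor genes and these families were not tested.

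**Figure D5:**
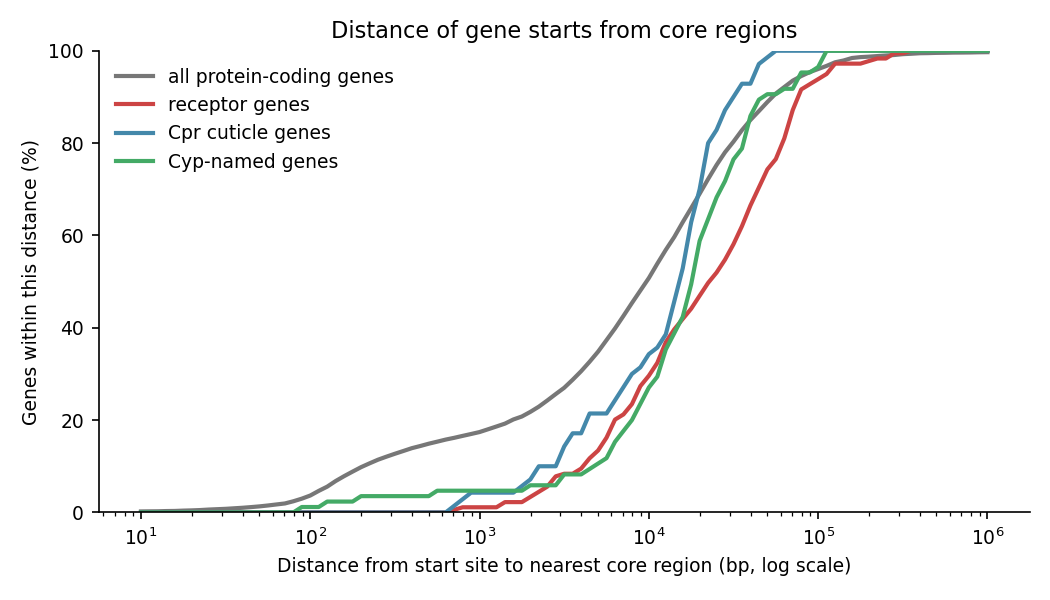
Cumulative share of genes (percent) by distance from the annotated start to the nearest core region (bp, log axis), for receptor genes, Cpr genes, Cyp genes and all protein-coding genes. The medians are 23.2 kb for receptor genes, 15.3 kb for Cpr, 17.9 kb for Cyp and 9.68 kb for all genes.

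The genes that act upstream of the receptors or beside them were counted in the same way, beside the same shares over all genes. Orco, the pheromone-sensing membrane protein genes Snmp1 and Snmp2, and the pheromone-binding protein gene lush had no core region. Of these 4 genes, Orco alone had a thresholded summit, in replicate 1 and in neither other replicate, while a ranked candidate lay at Orco and Snmp1 in all 3. Of 8 regulators of odorant receptor choice, 3 had a core region, against 23.1% of all genes, and each replicate had a thresholded summit at 3 of the 8, against 24.2%, 27.2% and 20.3%. Counts this small do not set the group apart from all genes. Among the regulators, acj6, pdm3, Eip93F and sim have territories of 30.8, 70.8, 67.4 and 22.4 kb, and of these only sim had a core region. Of all genes with territories of 12 kb or more, 46.4% had one. The regulators' core region of highest rank was at Xbp1, a factor of the unfolded protein response, 116 bp upstream of its start. It stood at percentile 82.7 ± 2.14 of the thresholded lists. The zinc finger gene zf30C had 2 core regions, the stronger 48 bp inside its start at 61.1 ± 8.33. The gene sim, which encodes the Tango partner Single-minded, had 2, the stronger in 2 lists at 40.2 ± 19.4. Of 8 genes that specify sensory organs or the antenna, only hth, which encodes a homeodomain protein of antennal identity, had core regions, again against 23.1% of all genes. It had 7 of them, the strongest at 81.2 ± 7.26, in a territory of 134 kb. The territories of lz, ss, Dll and dac, which had no core region, are 21.0, 31.3, 22.8 and 21.5 kb. For hth and these genes the share of all genes of like length is thus 46.4%. Dll, a homeobox gene of the limbs and antennae, had a thresholded summit in replicate 2 alone.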

How the data were processed

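Per the labels' free text, anti-GFP chromatin immunoprecipitation was done on 3 biological replicates of 1 group of tagged embryos, so no groups were compared, and samples were numbered by the labels' biological replicate number. The authors deposited, for each replicate, a thresholded and a ranked peak list on dm6, made, as the readme of the deposit says, from its own alignments and control data that were not analysed here. The sources used here do not name the aligner, the peak caller or the IDR settings. The signal value deposited for each peak has no stated unit and served as a rank within its list. The deposited score lay between 830 and 1000 in the thresholded lists and was equal, within 1 unit, to that of the ranked list at 3605, 4758 and 3026 of as many shared intervals, which places the cut-off at an IDR of 0.01. The global irreproducible discovery rate (IDR) is deposited as −log10 in the ranked lists, and 2 or more was taken as passing. The deposited summit offset, in bp from the peak start, gave each position. A conservative whole-series list served as an alternative, and the other whole-series lists were not used because their pairing of replicates is not stated.

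Gene models came from Ensembl release 115, protein-coding genes only, on the 7 chromosome arms, and sequence came from the NCBI assembly of the same build. Densities are distinct summits per merged territory, compared by exact two-sided sign-flip tests over replicates. Shares carry exact 95% binomial intervals. Named genes are every receptor gene with a thresholded summit, the 3 Ir co-receptors and the pathway genes with a core region; the genes named for recurrent regions, for missing candidates or for length, and Orco, Snmp1 and Dll, were chosen after their values were seen. The members, lists and roles were chosen with earlier results of these data known, and the word GATAA, the lists of all passing ranked candidates and the runs without Ir40a and Ir41a were added after seeing the data. Of the pathway genes with a core region, those of the Obp, Cpr and Cyp families are given as counts and in the closing section. Promoters were read from the genome by annotated start. The functions were tested on simulated data. Python 3.11.15, pandas 2.3.3, numpy 2.4.6, SciPy 1.17.1 and matplotlib 3.10.9 were used.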

Additional observations from a re-analysis of the deposited data

How the results depend on the processing

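The density of thresholded summits at receptor genes stayed below that of all genes under every alternative that gave a value (log2 ratio −3.54 to −0.44), as did that of ranked candidates (−0.87 to −0.17) and the passing share (−2.73 to −0.26). With the gene body alone or only summits nearest the gene's own start, the thresholded and passing ratios have no value because a replicate was at 0. The counts are small, and most depend on the territory. Within 1 kb of starts, 2 receptor genes had a core region (1 Gr, 0 Ir), with a thresholded summit at 1.3% and a ranked candidate at 40%. The shares of all genes with a core region, a thresholded summit and a ranked candidate were 17.4%, 18.2% and 64.1%. In the gene body alone 0 had a core region (0 Or, 0 Gr, 0 Ir), at 0% and 32.2%. In the same order, the shares of all genes were 9.63%, 10.1% and 55.5%. With 10 kb on either side it was 57 (6 Or, 26 Gr, 25 Ir), at 31.5% and 97.0%, against 54.9%, 56.0% and 96.9% of all genes. At that width nearly every gene of either set had a ranked candidate, so these shares cannot tell the sets apart. The density ratio of ranked candidates at that width was −0.17 on the log2 scale. Counting only summits nearest the gene's own start left 0 (0 Or, 0 Gr, 0 Ir), at 0.186% and 46.7%, against 15.2%, 16.0% and 64.8% of all genes. Interval overlap of 1 bp gave 6 receptor genes with a core region (2 Ir), against 23.7% of all genes. A thresholded summit was then at 3.17% of receptor genes, against 24.7% of all genes. Of the 140 receptor genes overlapping no other gene, 3 had a core region (1 Gr), against 23.1% of all genes. Peaks above the median signal left 1 receptor gene (0 Gr, 0 Ir) and 0.931%, against 14.4% and 14.9% of all genes. Regions in all 3 lists left 2 (1 Gr, 0 Ir), against 17.5% of all genes. Joining at 50 bp left 3 (0 Ir), against 21.7% of all genes. The conservative list gave 8 (2 Or, 4 Gr, 2 Ir), against 28.8% of all genes. Leaving out 1 replicate gave 2 to 3 receptor genes with a core region, 1 to 2 Gr and 0 to 1 Ir, with the lowest total, 2, without replicate 1. Of all genes, 18.9%, 17.9% and 21.4% had a core region without replicates 1, 2 and 3. Ranked lists of equal length gave a ranked candidate at 47.7% of receptor genes, against 71.5% of all genes. The causes were not tested. Joining at 300 bp, all ranked candidates past the threshold and the runs without Ir40a and Ir41a moved none of the summary values by more than the limit used (1.5 times for counts, 1 SD for percentages, the sign for ratios); the latter pair was added after seeing the data. No paired analysis was possible because there was 1 group. Unknown read depth and counts of at most 5 genes limit what can be told of single families.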

Other observations

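The Ir94c window held an inverted repeat that the description of its words does not show. The 16-base word atgtacagtgcgtttc, from position 6 of the window, returns as its reverse complement from position 167, with 145 bp between the arms (chr3R:22121341-22121517, dm6). Among the 201-bp windows of all 3463 core regions the longest such arm had a median of 8 bases and a maximum of 16, and 10 windows (0.289%) had arms of 15 bases or more. The longest arms in the Or88a, Gr32a and Gr97a windows were 8, 7 and 6 bases. The repeat was noticed in the printed sequence and then counted, and nothing further was tested about it.

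Among the comparison families, the core regions at Obp99b and at Obp83g, which encode odorant-binding proteins, lay 225 and 236 bp upstream of those genes' own starts. Their mean signal percentiles in the thresholded lists were 51.3 ± 14.5 (SD, n = 3) and 43.1 ± 22.9 (2 lists), and the Obp83g region also fell in the territory of Obp83ef. Of the Cyp genes with a core region, Cyp6u1 had the highest rank, at 93.0 ± 0.484 in 3 lists, nearest the start of Ufsp1. The others were Cyp6v1 at 62.5 ± 5.59 and Cyp310a1 at 48.9 ± 26.0, in 3 lists each, and Cyp1 at 35.0 ± 34.8 and Cyp317a1 at 19.9 ± 0.826, in 2 lists each. The Cpr genes were Cpr73D at 54.5 ± 30.4 (3 lists), nearest the start of Ogdh, and Cpr67Fb at 38.1 ± 6.24 (2 lists).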
